A study of Homo sapiens with 8 samples.

Results

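Glutamine tRNA genes encode the adaptors that bring glutamine to the codons CAG and CAA. They were taken as every row of the deposited tRNA gene table whose amino acid column reads Gln, leaving out names that begin with nm-. This gave 42 of the 631 genes. Their anticodons are CTG in 24 genes and TTG in 18, and 0 have another anticodon. Of the 42, 32 carry a plain tRNA name and 10 carry the prefix nmt, which the sources used here do not explain. The nm- exclusion removed 0 glutamine rows.

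The counts come from HEK293T cells, a transformed human embryonic kidney line, in 4 libraries. Both groups were transfected with a CRISPR/Cas9 plasmid. The control group received it without a guide RNA and is labelled with 100% ADAT2 expression. The knockdown group received it with a guide against ADAT2, which gave a stable heterozygote line labelled with 50% expression. Each group held 2 libraries, and both groups use the replicate numbers 3 and 4. Total RNA went into a small RNA library kit, and library fragments of 160 to 220 base pairs were kept. A tRNA table does not hold ADAT2, so the labelled level was not checked here. Each group is a single line, so ADAT2 and any other difference of the lines cannot be told apart. Separate cultures are not named in the labels, and p-values therefore reflect the spread of these libraries alone, which may be technical.

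A tRNA gene is transcribed by RNA polymerase III from promoter elements inside the gene, the A box and the B box. The anticodon is read at positions 34 to 36 of the mature tRNA, and position 34, the wobble position, is where many tRNAs are modified. Gln-CTG pairs with CAG. Gln-TTG pairs with CAA, and its wobble uridine is modified by the Elongator pathway, as in Lys-TTT and Glu-TTC. Glutaminyl-tRNA synthetase, QARS1, charges both families. ADAT2 and its partner ADAT3 deaminate an adenosine at position 34. Glutamine tRNAs have C or T there in the gene, so they are not substrates of this enzyme and serve here as tRNAs outside its known targets.

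The sequences of 1 gene of each family are set side by side. With 1 gene per family, differences outside the anticodon may belong to these genes alone. The glutamine anticodon is in capitals, at bases 34 to 36 counted from the 5′ end of the gene. The Gln-TTG gene is shown whole (GRCh38, chr6:28589379-28589450, plus strand), read from the GENCODE v29 transcripts that contain it. The Gln-CTG gene is shown for the first 60 of its 72 bases (chr1:148328812-148328871, plus strand), read from a RefSeq promoter stretch of GRCh38.p14.
Gln-TTG-2-1: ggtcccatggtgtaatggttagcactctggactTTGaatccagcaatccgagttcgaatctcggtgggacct
Gln-CTG-7-1: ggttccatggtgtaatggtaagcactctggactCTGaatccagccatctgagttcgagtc
Over the 60 shared positions 54 bases are identical and 6 differ. Written with the Gln-TTG-2-1 base first, the differences are C4T, T20A, T34C, A45C, C49T and A58G. The only difference within the anticodon is T34C, at the wobble position. Both genes hold the letters GTTCGANTC, which are the core of the B box, at bases 52 to 60, and neither holds them on the other strand. Among 35116 RefSeq promoter stretches searched on both strands, 0.0968% held these letters in a stretch of 72 bases and 0.0854% in one of 60 bases. Their counts lay far apart. Gln-TTG-2-1 had 299, 2239, 334 and 3208 counts in control 3, control 4, knockdown 3 and knockdown 4, and Gln-CTG-7-1 had 5, 60, 9 and 84. Gln-TTG-2-1 lies in an exon of AL049543.1 and of a noncoding ZBED9 transcript, and Gln-CTG-7-1 lies in an intron of AC245100.1 and LINC01138.

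Library totals were 698143 and 1069932 counts in control 3 and 4, and 878791 and 1211292 in knockdown 3 and 4. A gene without a count could hold up to 3 counts, which is 4.30 and 2.80 counts per 1000000 tRNA counts (CPM) in control 3 and 4, and 3.41 and 2.48 in knockdown 3 and 4. Whole tRNAs, precursors and fragments are counted together. In bulk RNA, fewer cells that make a tRNA and less of it per cell cannot be told apart. Identical copies give the same reads. The sources used here do not say how the authors placed reads with several matches, so the split among near-identical copies is uncertain.

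Glutamine genes held 1.45% of all tRNA counts in control 3 (95% Wilson interval 1.42 to 1.48) and 1.85% in knockdown 3 (1.82 to 1.88). In control 4 they held 6.77% (6.73 to 6.82) and in knockdown 4 they held 6.79% (6.74 to 6.83). Both libraries numbered 4 therefore lay well above both numbered 3, in either line. The group means were 4.11 ± 3.77% in control and 4.32 ± 3.49% in knockdown (SD, n = 2), a difference of 0.208 percentage points that is smaller than the spread within a group (two-sided exact permutation p = 0.667). With 2 libraries against 2 the smallest possible p is 0.333. Within number 3 the knockdown library was higher by 0.402 points and within number 4 by 0.0135 points. These intervals hold counting error only, because no molecular identifiers mark independent molecules.

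Gln-CTG genes gave most of the glutamine counts in every library. The family had 8186 counts in control 3, 56097 in control 4, 14060 in knockdown 3 and 62930 in knockdown 4. Gln-TTG had 1918, 16382, 2190 and 19288 in the same order. The ratio of Gln-CTG to Gln-TTG counts was thus 4.27 in control 3, 3.42 in control 4, 6.42 in knockdown 3 and 3.26 in knockdown 4. As a share of glutamine counts, Gln-CTG took 81.0% and 77.4% in control 3 and 4, against 86.5% and 76.5% in knockdown 3 and 4. The group means were 79.2 ± 2.56% and 81.5 ± 7.06% (SD, n = 2), and the groups overlapped (two-sided exact permutation p = 1). The share was higher in knockdown by 5.51 points within number 3, and differed by −0.857 points within number 4.

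Gln-CTG-4-1 was the most abundant glutamine gene in every library, by a wide margin in number 4 and by a small one in number 3. It lies on chromosome 1 (148265108 to 148265179, GRCh38, minus strand) between annotated genes. It had 2206 counts in control 3, 35905 in control 4, 3994 in knockdown 3 and 38257 in knockdown 4. That is 21.8% and 49.5% of glutamine counts in control 3 and 4, and 24.6% and 46.5% in knockdown 3 and 4. A single gene of the 42 therefore took close to as many counts as all other members together in the libraries numbered 4. Its mean level was 18359 ± 21495 CPM in control and 18064 ± 19119 CPM in knockdown (SD, n = 2). The genes compared by level here are 72 bases long unless stated, so CPM also compares them per length. Its copy Gln-CTG-4-2, 4573562 bases away on the same chromosome, had 148, 963, 197 and 992 counts. The ratio between these copies was 14.9 and 37.3 in control 3 and 4 and 20.3 and 38.6 in knockdown 3 and 4. The pair shares a symbol number, and the table gives both the same prediction score, 68.84.

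Gln-CTG-5-1 and Gln-CTG-6-1 did not share the excess of number 4. Gln-CTG-5-1 is on chromosome 6 (27295433 to 27295504, plus strand) in an intron of POM121L2. It had 1773 counts in control 3, 1568 in control 4, 3497 in knockdown 3 and 2387 in knockdown 4. In number 3 it almost equalled Gln-CTG-4-1, which was 1.24 and 1.14 times as abundant in control and knockdown. In number 4 that ratio was 22.9 and 16.03. Gln-CTG-6-1, also on chromosome 6 (27791356 to 27791427, minus strand, intergenic), had 1474, 2706, 2849 and 3868 counts. In CPM its knockdown libraries 3 and 4 (3242 and 3193) both lay above its control libraries 3 and 4 (2111 and 2529). Together these 2 genes gave 32.1% and 39.1% of glutamine counts in control 3 and knockdown 3, but 5.90% and 7.61% in control 4 and knockdown 4.

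The next Gln-CTG genes by mean level were Gln-CTG-2-1 and Gln-CTG-1-4. Gln-CTG-2-1, on chromosome 6 (27547752 to 27547823, minus strand, intergenic), had 519, 4210, 864 and 5041 counts. Gln-CTG-1-4, on chromosome 15 (65869062 to 65869133, minus strand) in an intron of RAB11A, which encodes a small GTPase of recycling endosomes, had 417, 2794, 469 and 3116. For both, the libraries numbered 4 stood above those numbered 3 and the lines overlapped. Gln-CTG-1-4 is the largest of the 5 genes of its copy group, with 28.2% to 29.7% of the group's counts. The other copies were Gln-CTG-1-1 (161, 1410, 218 and 1524 counts), Gln-CTG-1-2 (405, 1859, 423 and 1979), Gln-CTG-1-3 (138, 1949, 211 and 2398) and Gln-CTG-1-5 (282, 1746, 335 and 2051). Highest and lowest copies of this group differed by 3.02-fold in control 3 and 2.22-fold in knockdown 3, and by 1.98-fold and 2.04-fold in control 4 and knockdown 4. The group of 5 was therefore much more even than the pair Gln-CTG-4-1 and Gln-CTG-4-2.

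Gln-TTG counts came almost wholly from 6 genes. Gln-TTG-1-1 on chromosome 17 (49192528 to 49192599, plus strand) led with 670 counts in control 3, 6021 in control 4, 712 in knockdown 3 and 6650 in knockdown 4. It gave between 32.5% and 36.8% of the family in every library. No single Gln-TTG gene therefore dominated its family as Gln-CTG-4-1 did in number 4, where that gene held 64.0% and 60.8% of Gln-CTG counts in control and knockdown. Gln-TTG-3-3 on chromosome 6 (27795861 to 27795932) had 406, 2776, 486 and 3176 counts. Its copies Gln-TTG-3-1 and Gln-TTG-3-2, which lie 479 bases from each other on chromosome 6 (from 26311196 to 26311818), had 296, 2525, 386 and 3003 counts and 221, 2488, 232 and 2835 counts. These 3 copies differed by at most 1.12-fold in number 4, and by 1.84-fold in control 3 and 2.09-fold in knockdown 3. Pooled, the 3 copies had 923 counts in control 3, 7789 in control 4, 1104 in knockdown 3 and 9014 in knockdown 4. In every library that was more than Gln-TTG-1-1 had, and it does not depend on the split among these copies. Gln-TTG-2-1 followed with the counts given beside its sequence, and Gln-TTG-4-1 (chromosome 6, 145182723 to 145182794) had 22, 310, 36 and 402.

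**Figure D1:**
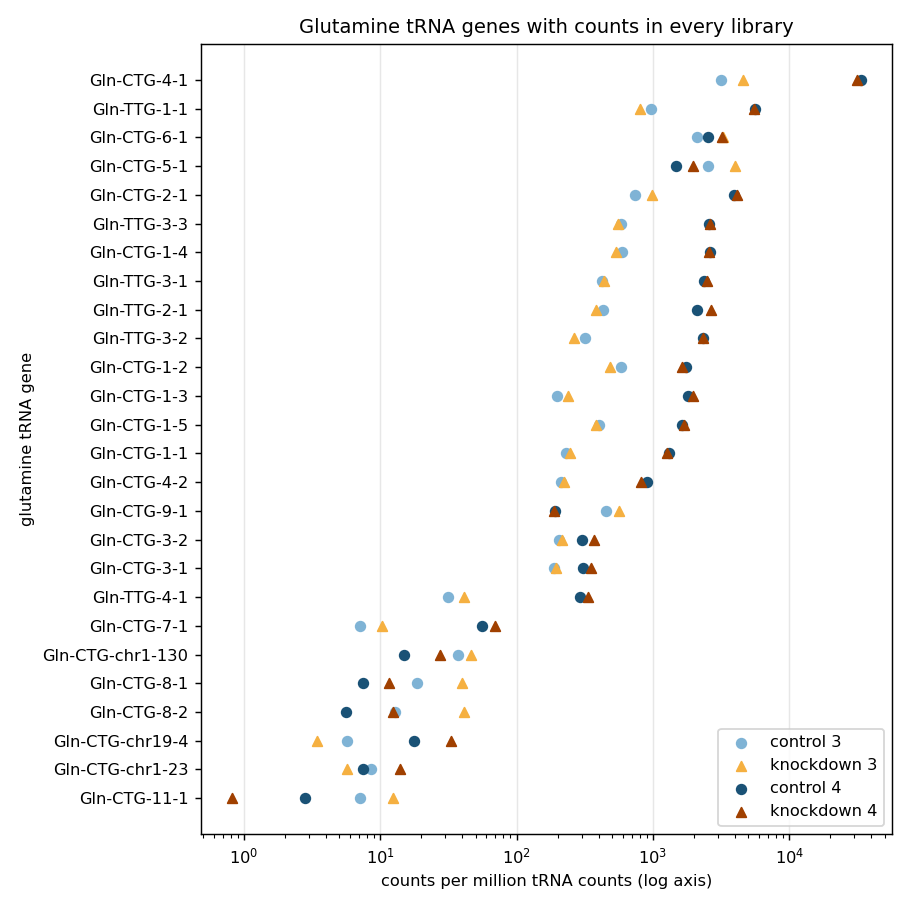
CPM on a log axis for the 26 glutamine tRNA genes with a count in every library, ordered by mean level, with circles for control and triangles for knockdown and pale and dark colours for numbers 3 and 4. Most genes split by number and not by line, and Gln-CTG-5-1 and Gln-CTG-9-1 are higher in number 3. Gln-CTG-6-1 hardly splits by number, and both its knockdown values lie above both its control values.

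Copy groups, which pool genes with 1 symbol number, avoid the uncertain split among copies of that number. Reads may still be shared between groups of similar sequence. Gln-CTG-4 gave 23.3% and 25.8% of glutamine counts in control 3 and knockdown 3, and 50.9% and 47.7% in control 4 and knockdown 4, so it differed more by number than by line. Gln-CTG-1 gave 10.2% to 13.9% in all libraries, with no split by number. Gln-TTG-3 gave 9.13% and 6.79% in control 3 and knockdown 3, against 10.7% and 10.96% in number 4. The smaller groups of copies were Gln-CTG-3, with 273, 653, 361 and 872 counts from 2 genes that differed by at most 1.11-fold, and Gln-CTG-8, with 22, 14, 71 and 29 counts from 2 genes.

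**Figure D2:**
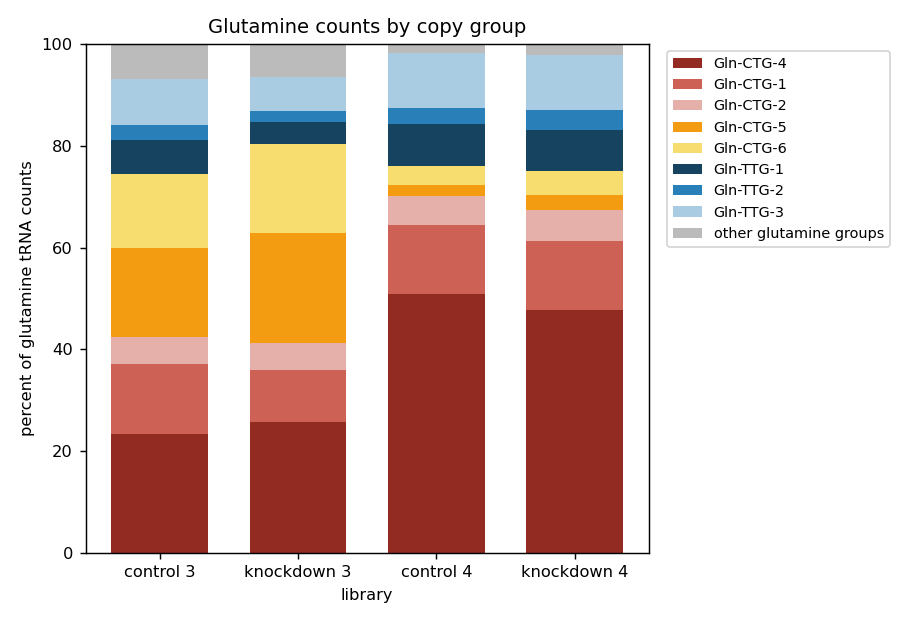
Percent of glutamine tRNA counts held by each copy group in the 4 libraries, stacked to 100. The dark red block of Gln-CTG-4 fills 23.3% and 25.8% of the bars numbered 3 and 50.9% and 47.7% of those numbered 4, where the orange and yellow blocks of Gln-CTG-5 and Gln-CTG-6 shrink.

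The members cluster in the genome. Chromosome 1 carries 12 of them, 11 within positions 143584701 to 149045008, and chromosome 6 carries 11, of which 9 lie within 26311196 to 28941672. The chromosome 6 stretch belongs to the large tRNA gene cluster of the extended major histocompatibility region. By GENCODE v29, 26 members are intergenic, 15 lie in an intron and 1 overlaps an exon. Some close neighbours differed in their counts and others did so little. Gln-TTG-3-1 and Gln-TTG-3-2, 479 bases apart, had 296 and 221 counts in control 3 and 2525 and 2488 in control 4. In knockdown 3 they had 386 and 232 and in knockdown 4 they had 3003 and 2835, with an uncertain split of reads between these copies. Gln-CTG-6-1 and Gln-TTG-3-3 are 4433 bases apart, and their counts were 1474 and 406 in control 3 but 2706 and 2776 in control 4. Gln-CTG-7-1 lies between members of opposite balance between the numbers, 63632 bases from Gln-CTG-4-1 and 24677 bases from Gln-CTG-9-1.

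RefSeq lists 19 of the 42 as tRNA genes and 10 as pseudogenes at the same ends, and 13 had no match. The 19 hold 96.2% and 99.6% of glutamine counts in control 3 and 4, and 96.1% and 99.5% in knockdown 3 and 4. Their deposited prediction scores run from 56.3 to 73.77, and those of all other members from 4.25 to 45.14. Across the 42 members the Spearman correlation of score and mean CPM was 0.84 as a description, and 0.79 over the 33 with a count. All members were counted in the same 4 libraries, and copies share a score. The most abundant member outside the 19 was Gln-CTG-9-1, a RefSeq pseudogene of score 43.68 in an intron of LINC01138 on chromosome 1 (148353561 to 148353632), with 316 counts in control 3, 204 in control 4, 496 in knockdown 3 and 228 in knockdown 4. In every library it had more counts than Gln-CTG-7-1, the lowest of the 19 in counts and score. The 10 pseudogenes held 3.21% and 3.14% of glutamine counts in control 3 and knockdown 3, and 0.317% and 0.296% in control 4 and knockdown 4. Nearly all of this was Gln-CTG-9-1 alone, with 3.13% and 3.05% in number 3 and 0.281% and 0.277% in number 4.

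Members of low count are accounted for as follows. Gln-CTG-chr1-130 had 26, 16, 41 and 33 counts, Gln-CTG-chr19-4, of 68 bases, had 4, 19, 3 and 40, and Gln-CTG-chr1-23 had 6, 8, 5 and 17. Gln-CTG-10-1, 11-1, 12-1 and 16-1, Gln-TTG-6-1 and nmt-tRNA-Gln-TTG-9-1, 7-1 and 6-1 had at most 22 counts in any library. All 10 nmt members together had 3 and 23 counts in control 3 and 4, and 4 and 14 in knockdown 3 and 4. No count was found for 9 members, namely Gln-TTG-5-1, Gly-TTG-chr8-10, nmt-tRNA-Gln-CTG-1-1 and nmt-tRNA-Gln-TTG-1-1, 2-1, 3-1, 4-1, 5-1 and 13-1. Gly-TTG-chr8-10 is the 1 member whose name gives another amino acid than its column. In turn, 2 rows are named Gln but typed otherwise and were not members. One of these, Gln-CAG-chr9-3, had 5, 90, 10 and 125 counts.

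Knockdown and control libraries were compared to ask whether glutamine tRNAs, which lack the adenosine that ADAT2 acts on, differ between the lines. None of the glutamine genes passed. The quasi-likelihood test of edgeR was fitted to the 4 libraries, with a Benjamini-Hochberg adjusted p under 0.05 as the threshold. It called 0 of 489 tested genes (0%). Before adjustment 1 gene had a p under 0.05, and by DESeq2 0 of 574 passed. Of the 42 members, 24 had enough counts to be tested and 18 had not, and 0 of the 24 had an unadjusted p under 0.05. The median log2 fold change was −0.02 over the tested members and −0.03 over all tested genes. Families gave 0 calls of 52 in edgeR (0%), 0 before adjustment, and 0 of 56 in DESeq2. Copy groups gave 0 of 326 in edgeR (0%), 1 before adjustment, and 0 of 409 in DESeq2. None of these fits held the replicate number as a term, so the spread between numbers entered their error. Their lack of calls does not show that the lines are alike. Fits with the number as a term called some genes and copy groups, Gln-CTG-8 among them, and are given in the closing section.

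Gln-CTG had a log2 fold change of 0.19 ± 0.94 and Gln-TTG of 0.12 ± 1.06 (SE, 2 libraries per group; adjusted p = 0.994 for both in edgeR), so the errors far exceed the differences. Both signs depend on scaling. With size factors by relative log expression (RLE) the values were −0.021 and −0.12. Gln-CTG-4-1 differed by −0.22 ± 1.28. The members with the smallest p were Gln-CTG-8-2 at 1.57 ± 1.26, Gln-CTG-8-1 at 1.01 ± 1.23 and Gln-CTG-5-1 at 0.56 ± 0.98 (SE; edgeR adjusted p = 0.998 for each). Gln-CTG-8-2 had 9 and 6 counts in control 3 and 4 against 36 and 15 in knockdown 3 and 4. Gln-CTG-8-1 had 13 and 8 against 35 and 14. For both, each knockdown library lay above the control library of its own number in raw counts. These 2 genes lie in introns of LINC01719 and PDE4DIP on chromosome 1 and have no RefSeq tRNA match, and a gene with so few counts carries a large counting error. Without knockdown 3, the value of the copy group Gln-CTG-8 went from 1.21 ± 1.04 to −0.12. That of Gln-CTG-8-2 went to 0.054, that of Gln-CTG-8-1 to −0.55 and that of Gln-CTG-5-1 to −0.42. That fit sets knockdown 4 against control 3 and control 4, so line and number cannot be told apart in it. All of these were lower in number 4 than in number 3, as given below.

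Since the libraries of a group differed so much by number, the ratio of knockdown to control was also taken within each number. These ratios of scaled counts rest on 1 library per group and have no error of their own. The counts were scaled by the trimmed mean of M values (TMM). Gln-CTG-4-1 had log2 ratios of 0.60 in number 3 and −0.35 in number 4, so its direction differed between numbers. Gln-CTG-5-1 had 0.72 and 0.17, Gln-CTG-6-1 0.69 and 0.07, and Gln-CTG-7-1 0.53 and 0.04. Gln-CTG-8-2 had 1.68 and 0.81, Gln-CTG-8-1 1.14 and 0.33, Gln-CTG-chr1-130 0.39 and 0.58, and Gln-CTG-3-2 0.16 and 0.02. These last 7 genes are the tested members higher in both numbers with TMM, and they were so under each of the 3 scalings tried, the other scalings having been chosen after the data were seen. All 7 are Gln-CTG genes, but with library totals 12 tested members were higher in both numbers, Gln-TTG-4-1 and Gln-TTG-3-1 among them, and with RLE 9.

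The other tested members split between the numbers. Lower in both were 5 members, Gln-TTG-1-1 (log2 ratios −0.17 and −0.30), Gln-TTG-3-2 (−0.19 and −0.25), Gln-CTG-1-2 (−0.20 and −0.35), Gln-CTG-1-4 (−0.09 and −0.28) and Gln-CTG-1-5 (−0.01 and −0.21). Of these, 3 stayed lower under every scaling, and Gln-TTG-3-2 and Gln-CTG-1-5 did not. With library totals 3 members were lower in both numbers and with RLE 4. In the remaining 12 members the directions were opposite with TMM. These tallies rest on the scaling of number 4, since 9 tested members were higher in knockdown 4 than in control 4 with TMM, 17 with library totals and 11 with RLE. With TMM, over all 489 tested genes, 133 (27.2%) were higher in both numbers and 168 (34.4%) were lower in both. With factors made from families, Gln-CTG had ratios of 0.34 and 0.14 and Gln-TTG of −0.25 and 0.21, and the Gln-CTG value of number 4 was as low as −0.17 under other scalings.

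**Figure D3:**
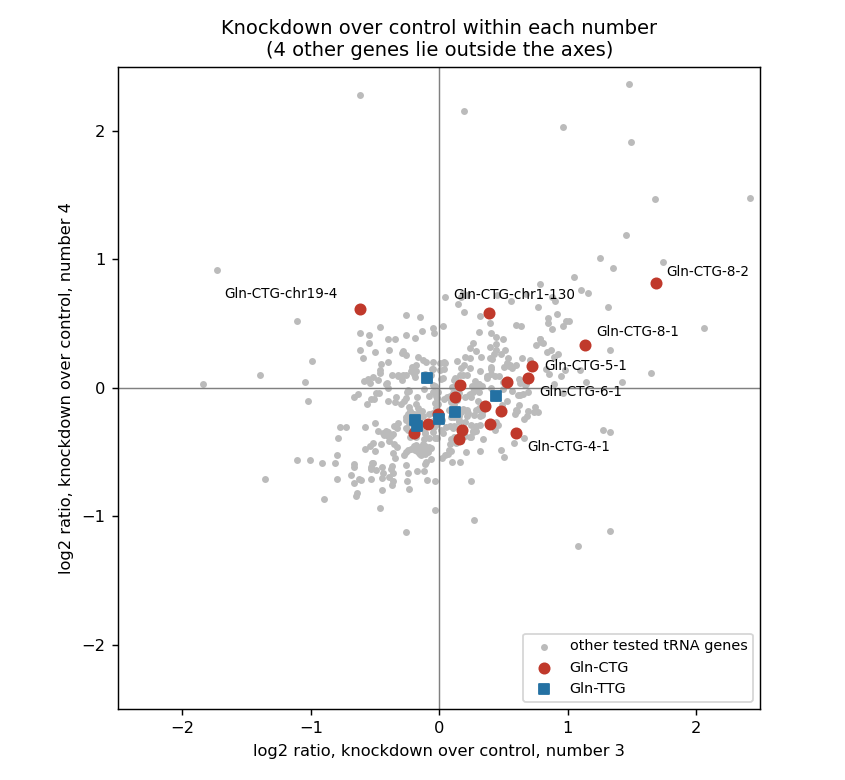
Log2 ratio of knockdown to control counts (TMM-scaled, 0.5 added) in number 3 on the x axis and in number 4 on the y axis, 1 point per tested tRNA gene, with Gln-CTG genes as red circles, Gln-TTG genes as blue squares and a few other genes outside the axes. On this scale the 7 members in the upper right quadrant are Gln-CTG genes (12 members, Gln-TTG genes among them, with library totals), and Gln-CTG-4-1 lies below 0 on the y axis at 0.60 and −0.35.

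The larger contrast in the glutamine counts was between the libraries numbered 4 and those numbered 3. The labels give these as replicate numbers and do not say what else sets them apart. The same edgeR test was fitted to the number, with group as the other term. It has 2 libraries per number and 1 residual degree of freedom, so its estimate of spread leans on all genes together. It called 16 of the 24 tested members higher in number 4 and 5 lower (adjusted p under 0.05). Over all 489 tested genes it called 197 higher (40.3%) and 183 lower (37.4%), against 235 and 130 with library totals in place of TMM, where the members gave 18 and 5. The median log2 ratio was 1.77 over the tested members and 0.01 over all tested genes. With library totals the median of all tested genes moved to 0.44, so the values given are relative to the TMM scale.

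All 6 tested Gln-TTG genes were higher in number 4, with a median log2 ratio of 2.17. Gln-TTG-4-1 was higher by 2.65 ± 0.25 and Gln-TTG-3-2 by 2.58 ± 0.21. Gln-TTG-1-1 was higher by 2.23 ± 0.24 and Gln-TTG-2-1 by 2.12 ± 0.21 (SE; the largest edgeR adjusted p of the 6 was 2.29e-15). In each of these genes both libraries numbered 4 had more CPM than both numbered 3, with no overlap. At family level Gln-TTG was higher by 2.17 ± 0.18 (edgeR adjusted p = 0.0163) and Gln-CTG by 1.53 ± 0.10 (edgeR adjusted p = 0.0145), where 34.6% of the 52 families were called higher and 23.1% lower. The difference between the families was not tested.

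Gln-CTG genes were mixed, with 10 higher, 5 lower and 3 without a call, and a median of 1.39. Gln-CTG-1-3 was highest at 2.68 ± 0.21, followed by Gln-CTG-4-1 at 2.67 ± 0.35 (SE; edgeR adjusted p = 9.17e-32 and 5.80e-13). Within the copy group Gln-CTG-1 the values ran from 1.24 ± 0.20 for Gln-CTG-1-2 to that of Gln-CTG-1-3. Gln-CTG-5-1 was lower in number 4 (−1.34 ± 0.23; edgeR adjusted p = 3.24e-08), and it was the only RefSeq tRNA gene among the members called lower. Gln-CTG-6-1 at −0.31 ± 0.23, Gln-CTG-3-1 at 0.35 ± 0.20 and Gln-CTG-3-2 at 0.24 ± 0.20 did not pass. With library totals Gln-CTG-6-1 turned to 0.12, and Gln-CTG-3-1 and Gln-CTG-3-2 passed at 0.79 and 0.67.

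The other members lower in number 4 were outside the RefSeq tRNA class. Gln-CTG-9-1 was at −1.85 ± 0.20, Gln-CTG-8-1 at −2.08 ± 0.47, Gln-CTG-8-2 at −2.06 ± 0.49 and Gln-CTG-chr1-130 at −1.45 ± 0.37 (SE). All of them lie on chromosome 1 and carry prediction scores of 43.68 to 44.40. Gln-CTG-8-1, Gln-CTG-8-2 and Gln-CTG-chr1-130 have the same score, 44.40, and whether they share reads was not tested. In this class 4 of the 5 tested members were lower and Gln-CTG-chr19-4 was higher, at 2.04 ± 0.62, while 18 others of the class were not tested. Of the 19 RefSeq tRNA members 15 were higher, 1 lower and 3 without a call. The copy groups of 2 or more genes were called too, with Gln-CTG-4 at 2.85 ± 0.20, Gln-TTG-3 at 2.31 ± 0.19, Gln-CTG-1 at 2.02 ± 0.19, Gln-CTG-3 at 0.52 ± 0.18 and Gln-CTG-8 at −1.80 ± 0.37 (SE; edgeR adjusted p under 0.05 for each). With RLE the call of Gln-CTG-3 was lost (0.27). Over all 326 groups 44.5% were called higher and 33.4% lower.

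**Figure D4:**
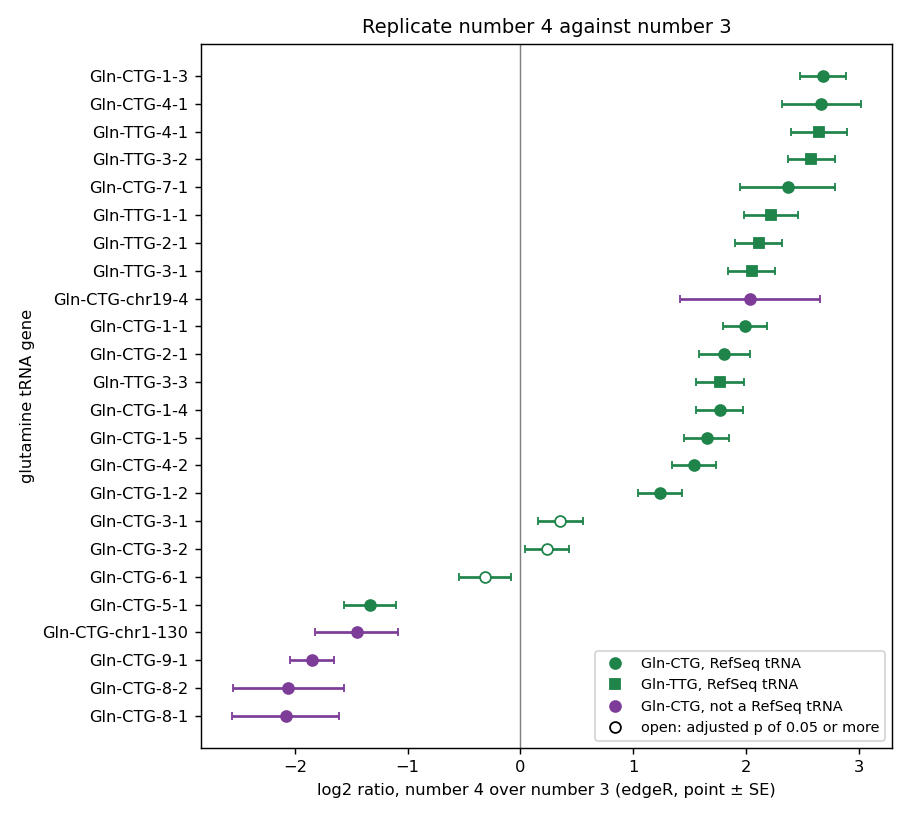
Fitted log2 ratio of number 4 to number 3 with its SE for the 24 tested glutamine tRNA genes (edgeR, group as a second term), in green for RefSeq tRNA genes and purple for other members, squares for Gln-TTG and open symbols where the adjusted p was 0.05 or more. Values run from −2.08 for Gln-CTG-8-1 to 2.68 for Gln-CTG-1-3, and Gln-CTG-5-1 is the only green point called below 0.

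Other tRNAs were set beside glutamine through lists. Glutamate codons differ from those of glutamine only at the first letter. Glutamate genes held 8.75% and 11.9% of all counts in control 3 and 4, and 6.86% and 9.78% in knockdown 3 and 4. Of the 24 tested glutamate genes 5 were higher and 12 lower in number 4 (7 and 8 with library totals), with a median of −0.45. Lys-TTT, which shares the wobble modification of Gln-TTG, held 6.08%, 3.84%, 4.19% and 3.42%, and 16 of its 17 tested genes were lower in number 4 and 1 higher (10 and 1 with library totals), with a median of −0.96. Called Lys-TTT genes thus lay on the other side of 0 from the Gln-TTG genes, 1 excepted. The 8 families that ADAT edits held 8.21%, 10.4%, 10.8% and 12.9% of counts, and 54 of their 99 tested genes were higher and 32 lower in number 4 (56 and 18 with library totals). Between lines 0 genes of any of these lists passed, and the medians of knockdown over control were −0.43 for glutamate, −0.21 for Lys-TTT and 0.11 for the edited families, beside 0.05 for Gln-CTG and −0.16 for Gln-TTG.

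The pattern of Gln-CTG-4-1 was compared with those of 410 other genes of at least 50 mean counts by the Pearson correlation of log2 CPM over the 4 libraries, as a description. The nearest genes outside glutamine were Ala-TGC-3-2 (r = 0.9998), Met-CAT-6-1 (0.999) and Asn-GTT-2-3 (0.999). Ala-TGC-3-2 had 550, 2245, 804 and 2418 counts, Met-CAT-6-1 had 191, 645, 263 and 727, and Asn-GTT-2-3 had 168, 598, 242 and 702. Among the members, Gln-CTG-9-1 had an r of −0.96 with it, Gln-CTG-5-1 of −0.80 and Gln-CTG-6-1 of 0.32, and the 15 others of that count had values from 0.95 to 0.999. All these correlations rest on 4 libraries that differ mainly by number. They take no account of the size of a difference. The TMM-scaled log2 ratio of control 4 to control 3 was 3.15 for Gln-CTG-4-1, against 1.15 for Ala-TGC-3-2, 0.87 for Met-CAT-6-1 and 0.95 for Asn-GTT-2-3.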

How the data were processed

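The 8 deposited samples are 4 libraries of 2 sequencing lanes each, matched to the count columns by the library codes in the labels, and 0 count columns had no group. The deposited values are raw counts of reads per tRNA gene. The submitters' processing notes name Bowtie2 2.2.2, hg38 and GRCh38, and the labels name summarizeOverlaps. Neither says how multiple matches, mismatches or strand were handled. The authors deposited a prediction score per gene, per the file headers, with no account of how it was made.

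Genes, anticodon families and copy groups were tested with edgeR 4.0.16 (R 4.3.3) after filterByExpr (minimum count 10) and TMM, with Benjamini-Hochberg adjustment over all features. DESeq2 1.42.0, other scalings, no filter and left-out libraries were alternatives. SE is the log2 fold change divided by the root of F. Initiator methionine was kept apart from elongator methionine by name. Shares were compared by exact permutation (scipy 1.17.1). The edgeR gene fits were also run on simulated counts with 200 changed genes and a dispersion of 0.02. The outcome is not given here, and no result rests on it.

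The members and lists were chosen with earlier results of these data known. Values in every library are given for the 5 Gln-CTG and 5 Gln-TTG genes of highest mean CPM, for the 3 largest differences each way between numbers (mean of at least 50 counts), for the 3 smallest p and for copy groups. Other scalings of within-number ratios and of single number ratios were added after the data were seen.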

Additional observations from a re-analysis of the deposited data

How the results depend on the processing

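Between lines, calls stayed at 0 for genes, families and copy groups with library totals, RLE, no filter and DESeq2, and with any 1 library left out. Under a replicate block, in which the number enters the fit, 39 genes passed (76 with library totals, 61 with RLE, 24 in DESeq2), 45 copy groups (52, 29 and 10) and 0 families (5 with library totals, 1 in DESeq2). Under this block 0 of 24 glutamine genes passed, against 7.98% of all genes. Of 15 tested glutamine copy groups, 1 passed, beside 13.8% of all copy groups (8.9% with RLE). This was Gln-CTG-8 (1.10, edgeR adjusted p = 0.0340, and 0.0366 with RLE). With library totals it lost that call (edgeR adjusted p = 0.0591) and DESeq2 gave it no adjusted p. The block with library totals called 2 of the 24 genes, Gln-CTG-5-1 (0.54, edgeR adjusted p = 0.0158) and Gln-CTG-6-1 (0.48), beside 15.5% of all genes. It also called their copy groups Gln-CTG-5 (edgeR adjusted p = 0.00278) and Gln-CTG-6 (edgeR adjusted p = 0.00932), beside 16% of all copy groups. Each of these groups holds 1 gene, so the group calls rest on the same counts as the gene calls and add no separate support. With RLE the block called 1 of the 24 genes, Gln-CTG-5-1 (0.51), beside 12.5% of all genes. In DESeq2 it called 0 glutamine genes or groups. The labels name no shared batch. Deviations of same-numbered libraries correlated at 0.920, from 2 pairs only.

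Gln-CTG turned to −0.021 with RLE. Gln-TTG turned to −0.12 with RLE and −0.081 in DESeq2, and with the replicate block to −0.019, −0.040 (library totals), −0.14 (RLE) and −0.082 (DESeq2). Gln-CTG-4-1 turned only with the block, to 0.12 with TMM, 0.21 with the block and library totals, 0.19 with the block and RLE and 0.20 with the block in DESeq2, leave-one-out apart. The cause was not tested. Between numbers, Gln-CTG-6-1 and its copy group turned to 0.12 with library totals, and Gln-CTG-3 lost its call with RLE (0.27).

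With 1 library left out, the log2 fold change ran from −0.69 to 1.22 for Gln-CTG, −1.53 to 1.40 for Gln-TTG and −1.70 to 2.22 for Gln-CTG-4-1. It ran from −0.42 to 1.18 for Gln-CTG-5-1 and from 0.13 to 0.70 for Gln-CTG-6-1. The range was −0.12 to 2.06 for Gln-CTG-8, 0.054 to 2.40 for Gln-CTG-8-2 and −0.55 to 1.94 for Gln-CTG-8-1. Leaving out 1 library sets 1 number against both, so line and number are mixed in these values. The difference in the glutamine share ran from −2.46 to 2.87 points, and that in the Gln-CTG share from −2.67 to 7.32 points. The lone library left in a group was assumed to vary like the others. Counts under about 50 limit what Gln-CTG-8 can show.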
